A study of Mus musculus with 18 samples.

Results

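RNA was measured in mouse skin flaps lying over D15L100 spacers and compared with Control flaps, which asks how far the transcriptome of a D15L100 flap departed from that of an untreated one. The comparison takes 6 of the 18 libraries of the series, chosen by their labels, with 3 D15L100 and 3 Control libraries. A flap is a piece of skin lifted from its bed and laid back. Beneath each D15L100 flap lay a spacer, a mesh printed by near-field electrostatic printing, while the Control flaps had no treatment after the flap was made, and skin was collected at day 7. The other 4 groups, D15L150, D15L200, D100L150 and D150L150, also lay over spacers and have 3 libraries each. The labels give neither a meaning nor a unit for the numbers after D and L, and they give no strain, sex or age. Nothing in them states if each library is a separate animal, so p-values here reflect library-to-library spread, which may be technical.

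The epidermis is renewed from a basal layer of keratinocytes fixed to the basement membrane. Cells that leave this layer exchange their keratins, reinforce their desmosomes and lay down the cornified envelope and the lipids of the skin barrier, while keratinocytes near a wound switch on a separate group of keratins. Mitochondria carry a small genome that encodes part of the respiratory chain, and nuclear genes encode the rest. A whole flap also holds dermis, vessels, immune cells and a thin sheet of muscle. In such bulk samples fewer cells of a type and less RNA per cell cannot be told apart.

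The 6 libraries held 30240484 to 34220318 fragments, recovered from the steps of the deposited FPKM values (fragments scaled by gene length and library size). Control 1 stood apart. Across the 13078 genes tested, its log2 values correlated at 0.892 to 0.949 with the other 5 libraries, against 0.979 between Control 2 and Control 3. D15L100 3 was the library of its group nearest to Control 1, at a correlation of 0.949. The 3 D15L100 libraries correlated at 0.956 to 0.975 with each other and at 0.968 to 0.979 with Control 2 and 3, so by this measure they were no more alike among themselves than to those 2. Markers of the main skin cell types were present in all 6 libraries: Krt5 of keratinocytes at 429 to 1458 FPKM, Col1a1 of fibroblasts at 919.7 to 2693, Pecam1 of endothelium at 37.9 to 151, Acta1 of skeletal muscle at 2559 to 5972 and Adgre1 of macrophages at 17.5 to 104. Pmel of melanocytes was at 0.0705 to 2.51. Single libraries weighed heavily in both groups. Most list medians against Control are therefore followed by their lowest and highest value over the 6 fits that each left out 1 of these libraries.

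Most genes of D15L100 flaps lay close to Control. Differences are D15L100 minus Control in mean log2(FPKM + 1), a scale that understates changes of low genes, and an adjusted p under 0.05 was the threshold. No gene passed it in limma (0 of 13078 tested, 0%), and the smallest adjusted p was 0.9998, so no gene below is called higher or lower by the test. An unadjusted p under 0.05 was reached by 431 genes (3.3%), 263 with a positive difference (2.01%) and 168 with a negative one (1.28%). The voom model in limma on recovered fragments, the second tool, also called 0 and gave 394 such genes. The median difference over all genes was -0.01, and percentiles 5 and 95 lay at -0.36 and 0.55. A gene is termed near Control where its difference was at most 0.5 in size, and bounded within 2-fold where the 95% interval of its difference lay between -1 and 1. By these measures 11973 genes (91.6%) were near Control and 10822 (82.7%) were bounded within 2-fold.

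The tail of large differences was lopsided with all libraries in the fit. A difference above 1 was found for 230 genes (1.76%) and one below -1 for 24 (0.184%), with extremes at Krt1, 2.54 ± 1.03 (SE), and Csf3, -2.15 ± 1.43. Csf3, the granulocyte growth factor gene, had 2.82, 0.922 and 1.55 FPKM in D15L100, against 89.01, 2.07 and 4.95 in Control, so its extreme rests on Control 1. Set against the same 3 Control libraries, the counts above 1 and below -1 were 618 and 187 in D15L150, 594 and 135 in D15L200, 427 and 239 in D100L150, and 586 and 328 in D150L150. These comparisons share the Control libraries, so their counts are set side by side without a test. Of the 230 genes, 35 lie on chromosome 3 (15.2%, against 5.19% of genes tested), where the genes of the cornified envelope are clustered, and 27 lie on chromosome 7 (11.7%, against 7.59%), which carries the kallikrein protease genes.

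Both tails leaned on single libraries. Control 1 held the lowest of the 6 values in 220 of the 230 genes above 1 (95.7%), against 30.9% of all genes. D15L100 3 lay at or below the highest Control value in 182 of the 230 (79.1%). Over all genes it did so in 11258 of 13078, so this does not set the tail apart. D15L100 values lay wholly above Control in 47 of the 230, against 275 of all genes (2.1%). The 230 were selected by their difference, which itself favours such an arrangement, so this contrast is no test. All 24 genes below -1 had their highest value in Control 1, against 30.7% of all genes. Without Control 1 the counts were 73 above 1 and 13 below -1, and without D15L100 3 they were 443 and 56. Without Control 2 they were 408 and 158, without Control 3 401 and 51, without D15L100 1 203 and 44, and without D15L100 2 130 and 26, so the upper count was the larger in each case but by a varying margin. What sets these libraries apart was not tested.

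**Figure D1:**
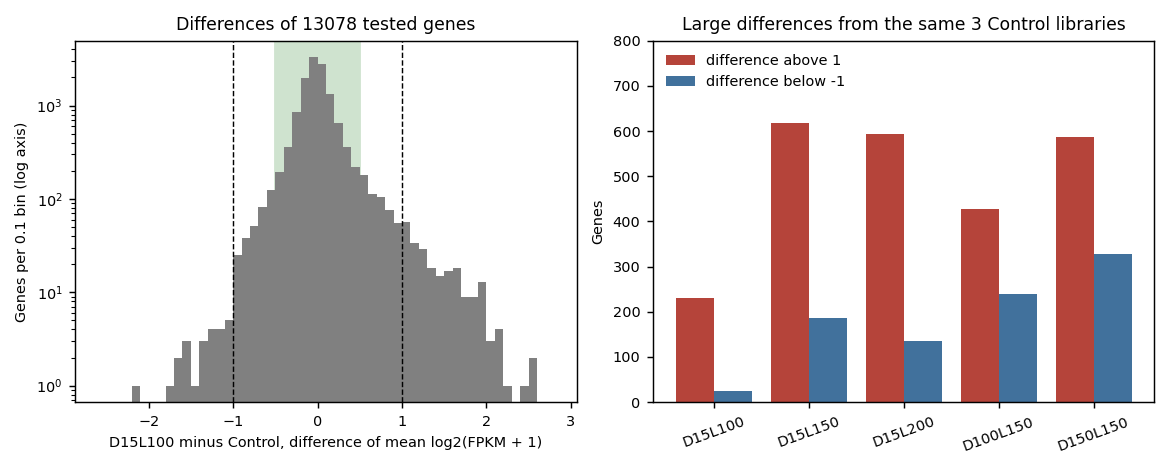
Left, number of tested genes (log axis) by their difference D15L100 minus Control in mean log2(FPKM + 1), with the range of at most 0.5 shaded and dashed lines at -1 and 1. Right, bars count genes above 1 and below -1 for each spacer group against the same 3 Control libraries, and D15L100, with 230 and 24, has the fewest of both.

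Genes whose 3 D15L100 values all lay above Control numbered 275 (2.1% of those tested), and those with all 3 below numbered 519 (3.97%). Having this arrangement was 1 way to be named here, so the gaps described next are no test. The 12 largest differences on the higher side came mainly from the outer epidermis. Desmocollin 1, Dsc1, a cadherin of upper-layer desmosomes, stood at 32.99, 75.2 and 15.2 FPKM in D15L100 1, 2 and 3, against 3.94, 7.96 and 12.1 in Control 1, 2 and 3. Its difference was 2.06 ± 0.51, with a 95% interval of 0.96 to 3.16. Hornerin, Hrnr, a filaggrin-like protein of the cornified layer, was at 31.3, 27 and 5.89 FPKM in D15L100 and 3.23, 4.30 and 4.18 in Control, a difference of 1.92 ± 0.50. In both genes D15L100 3 was the lowest of its group and sat just above Control, while D15L100 1 and 2 were well clear of it. The kallikrein protease gene Klk7 had 231, 236 and 99.4 FPKM in D15L100 flaps, against 23.6, 85.98 and 82.9 in Control flaps, a difference of 1.65 ± 0.50. Klk6, of the same family, had 84.5, 171 and 58.3 FPKM in D15L100 and 10.8, 55.04 and 46.4 in Control. Krtdap, a secreted peptide of differentiating keratinocytes, was far more abundant at 2126, 1453 and 929 FPKM in D15L100 and 187, 815 and 652 in Control, with a difference of 1.61 ± 0.50. For these 3 genes the gap between the groups was narrow beside the distance of Control 1 from Control 2 and 3. The rest of the 12 included the small proline-rich gene Sprr2a3 (1.99 ± 0.55), the gasdermin Gsdmc (1.78 ± 0.47), the epithelial actin-binding gene Pof1b (1.69 ± 0.54) and the cysteine protease inhibitor Stfa3 (1.76 ± 0.49). Sprr2a3 and Stfa3 have near-identical neighbours, so their counts are uncertain.

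Not all of the 12 genes belong to the epidermis. The immediate early factor Fosb was at 12.1, 6.47 and 9.56 FPKM in D15L100 and 2.78, 0.847 and 1.41 in Control, with no overlap and a difference of 1.98 ± 0.64. Tdh, threonine dehydrogenase, was at 8.36, 12.1 and 3.67 FPKM in D15L100 and 0.439, 1.72 and 2.40 in Control. Control 1 was the highest Control library for Fosb and the lowest for Tdh. Slamf9, a receptor of myeloid cells and among the 10 genes with the smallest p, varied little within D15L100: 24.9, 25.4 and 23.2 FPKM in D15L100, against 5.997, 10.2 and 13.2 in Control, a difference of 1.30 ± 0.35. Others of the 10 were Teddm3 (1.55 ± 0.37), Serpinb6c (1.41 ± 0.34), the glutathione cycle enzyme Ggct (1.54 ± 0.39) and the tryptophan breakdown enzyme Afmid (-0.40 ± 0.11), beside Tdh, Dsc1, Hrnr, Gsdmc and Mfng.

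On the lower side the 12 largest non-overlapping differences were smaller, from -0.99 to -0.79. Haptoglobin, Hp, a haemoglobin-binding plasma protein, had 244, 215 and 166 FPKM in D15L100, against 281, 378 and 446 in Control, a difference of -0.81 ± 0.33. Lrg1, a secreted glycoprotein of inflamed vessels, was at 40.9, 43.1 and 46.6 FPKM in D15L100 and 152, 56.03 and 72.97 in Control. Igfbp3, which binds insulin-like growth factors, was at 44.2, 30.8 and 39.7 FPKM in D15L100 and 134, 47.4 and 64.97 in Control. The D15L100 values of Lrg1 and Igfbp3 were close together, and their Control values were spread more widely, with Control 1 the highest. The smallest unadjusted p of all genes, 0.000742 in limma, belonged to Mfng, a fringe glycosyltransferase that modifies Notch, at 3.08, 2.72 and 2.38 FPKM in D15L100 and 7.22, 3.92 and 4.47 in Control, -0.70 ± 0.16. The remaining lower genes were the cytokine genes Il23a, Tnfsf14 and Tnfsf11, the thrombin receptor F2rl3, the protease Mmp10, the chromatin remodeller Chd7, Ehd3, Osgin1 and the non-coding Dnm3os, which lies antisense to another gene and cannot be told from it where counting ignores strand.

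**Figure D2:**
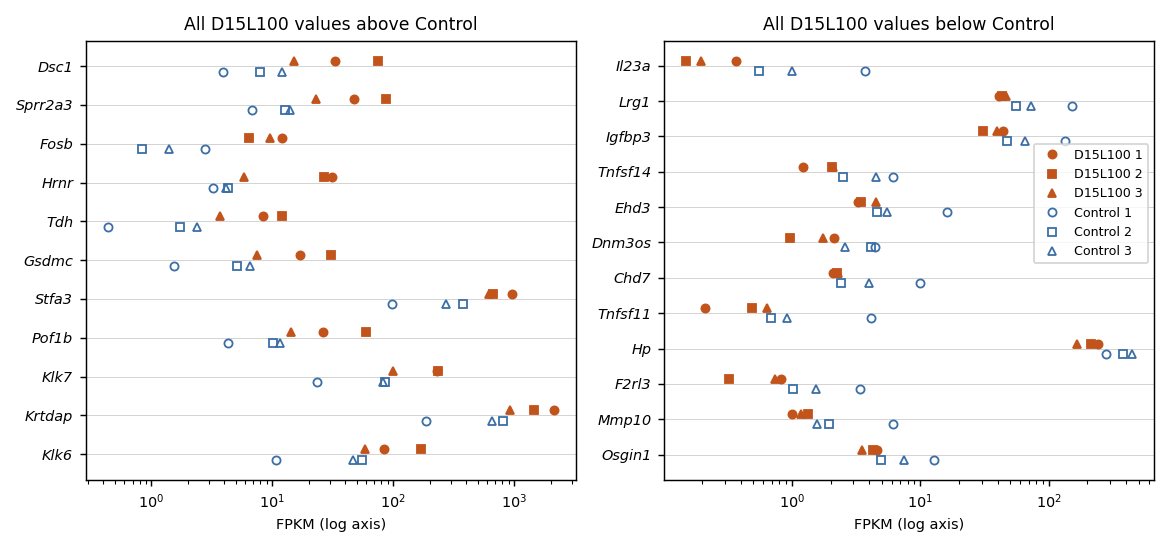
FPKM (log axis) in each D15L100 library (filled) and Control library (open) for genes with the largest differences among those whose groups do not overlap, 11 higher in D15L100 at left and 12 lower at right. Control 1 (open circle) is the lowest value for 10 of 11 genes at left and the highest for 11 of 12 at right.

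Suprabasal and cornified envelope genes, which build the outer layers of the epidermis, had the highest median difference of the 35 lists, with wide error. The median over the 21 of 22 members tested was 1.70, against -0.01 over all genes, and 20 were positive. None passed the adjusted test, and 14 had an unadjusted p under 0.05 and a positive difference (66.7%, against 2.01% of all genes). Members and lists were chosen with earlier results of these data known. Here and below, shares of a list set beside all genes are therefore descriptions and no test. In 3 of the 21 the D15L100 values lay wholly above Control, against 2.1% of all genes. Keratin 1, Krt1 (chr15:101845426-101850786), the type II keratin of suprabasal cells, stood at 1068, 1295 and 211 FPKM in D15L100, against 19.99, 269 and 263 in Control, a difference with an interval of 0.34 to 4.74. Its partner Krt10 (chr11:99385254-99397449) was at 222, 376 and 25.98 FPKM in D15L100 and 4.003, 49.6 and 56.4 in Control, 2.43 ± 1.17. Loricrin, Lor, the main envelope protein, was at 569, 379 and 64.8 FPKM in D15L100 and 11.2, 113 and 102 in Control, 2.21 ± 0.87. In each of these genes D15L100 1 and 2 lay above all Control values and D15L100 3 fell within their range. D15L100 1 and 2 exceeded every Control value in 19 of 21 genes of the list, against 1132 of all 13078 genes tested. D15L100 3 was within or below the Control range in 18 of 21, against 11258 of all 13078, so that part is no trait of the list. Control 1 was the lowest of the 6 in 19 (90.5%, against 30.9% of all genes). The list median was 1.04 without Control 1, 2.56 without D15L100 3 and 1.82 without both, a last setting chosen after seeing the data. The 14 genes at an unadjusted p under 0.05 became 2 without Control 1, 2 without D15L100 2 and 3 without D15L100 1, against 18 without D15L100 3. The count over all genes moved too, from 263 positive genes of 13078 to 108, 86, 171 and 496 in the same fits. Only 2 members were near Control, Krt2 and Lce3f. Both were barely detected, Krt2 at 0.0332, 1.38 and 0.0125 FPKM in D15L100 and 0, 0.0229 and 0.0122 in Control, and Lce3f at 0.0943, 0.567 and 0.213 in D15L100 and 0.667, 1.02 and 0.156 in Control.

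The stretch of 250 bases before the annotated start is shown for 4 suprabasal and 2 basal genes. The 2 basal genes were near Control with all libraries in the fit, but not whichever library was left out. These 6 are chosen examples and do not represent their lists. All 4 suprabasal ones hold a match to the pattern below, against 8 of the 18 suprabasal genes with a promoter entry. Sequences are from RefSeq on GRCm38.p6, which is the build mm10 named in the submitters' processing notes, and are read 5′ to 3′ on the gene's strand. Capitals mark matches to TGANTCA, which reads alike on both strands, N being any base. This pattern is looser than the AP-1 consensus, in which the middle base is C or G.
Krtdap, chr7:30787655-30787904, plus strand: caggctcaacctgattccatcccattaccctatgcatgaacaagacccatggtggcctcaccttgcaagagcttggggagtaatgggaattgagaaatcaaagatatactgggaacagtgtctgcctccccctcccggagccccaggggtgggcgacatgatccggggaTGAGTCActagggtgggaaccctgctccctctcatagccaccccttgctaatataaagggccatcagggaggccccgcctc
Lor, chr3:92083143-92083392, minus strand: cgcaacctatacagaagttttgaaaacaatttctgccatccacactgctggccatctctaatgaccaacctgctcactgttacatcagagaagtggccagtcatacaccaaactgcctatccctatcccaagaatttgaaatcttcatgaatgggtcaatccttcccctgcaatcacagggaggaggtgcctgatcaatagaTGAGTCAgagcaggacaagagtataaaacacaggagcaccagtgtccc
Ivl, chr3:92573736-92573985, minus strand: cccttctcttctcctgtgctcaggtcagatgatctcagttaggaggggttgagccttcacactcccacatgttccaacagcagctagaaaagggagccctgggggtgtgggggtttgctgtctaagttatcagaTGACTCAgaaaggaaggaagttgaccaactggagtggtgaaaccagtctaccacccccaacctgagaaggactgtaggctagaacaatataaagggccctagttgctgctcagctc
Flg, chr3:93273296-93273545, plus strand: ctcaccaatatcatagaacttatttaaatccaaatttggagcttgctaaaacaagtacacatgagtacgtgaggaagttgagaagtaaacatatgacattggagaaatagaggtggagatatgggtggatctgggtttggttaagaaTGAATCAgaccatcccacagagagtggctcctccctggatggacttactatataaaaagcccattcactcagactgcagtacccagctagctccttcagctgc
Krt5, chr15:101712906-101713155, minus strand: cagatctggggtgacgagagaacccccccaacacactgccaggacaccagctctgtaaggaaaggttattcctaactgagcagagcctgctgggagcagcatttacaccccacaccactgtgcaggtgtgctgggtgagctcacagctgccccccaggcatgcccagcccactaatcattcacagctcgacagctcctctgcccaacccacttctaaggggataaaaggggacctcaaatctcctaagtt
Col17a1, chr19:47692043-47692292, minus strand: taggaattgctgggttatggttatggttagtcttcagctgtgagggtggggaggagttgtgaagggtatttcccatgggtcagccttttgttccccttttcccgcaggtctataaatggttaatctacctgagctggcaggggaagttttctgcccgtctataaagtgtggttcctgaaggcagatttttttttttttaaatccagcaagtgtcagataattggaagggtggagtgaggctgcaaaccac
A match was present in 8 of the 18 suprabasal genes with a promoter entry (44.4%), in 652 of the 10313 tested genes that have one (6.32%) and in 2113 of all 27025 genes with one (7.82%). The 8 are Krtdap, Lor, Ivl, Flg, Flg2, Rptn, Sbsn and Dmkn. Of these, Flg, Flg2 and Sbsn match only as TGAATCA and Rptn only as TGATTCA, without the C or G of the AP-1 consensus. Krt10 and Hrnr are among the suprabasal genes without a match. Flg, Flg2 and Rptn are neighbouring genes of one family on chromosome 3, where Lor and Ivl also lie, and Krtdap, Sbsn and Dmkn are neighbours on chromosome 7, so the 8 are not separate instances. None of the 6 basal genes with an entry and none of the 9 protease genes held a match in this window. Among the 12 leading genes on each side, a match was present in 1 of 8 higher genes with an entry (12.5%) and in 3 of 9 lower ones (33.3%). The grainyhead motif AACNGGTT, searched on both strands, was found in 1 of the 18 suprabasal genes (5.56%) and in 1.91% of tested genes. A match is a description of the letters and not a measured binding site.

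Among those 4 genes, involucrin, Ivl, another envelope protein, had 50.4, 42.3 and 7.86 FPKM in D15L100, against 1.93, 12.5 and 9.61 in Control, 1.85 ± 0.78. Filaggrin, Flg, which bundles keratin, had 72.03, 35.2 and 12.6 FPKM in D15L100 and 1.84, 15.02 and 12.02 in Control, 1.98 ± 0.81. As in Lor, D15L100 1 and 2 lay above all Control values and D15L100 3 within their range. Krt77 showed how far single libraries could reach, with 27.8, 462 and 1.69 FPKM in D15L100 and 0.0217, 42.1 and 50.2 in Control, and an interval of -3.20 to 5.86.

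Basal keratinocyte genes had small differences beside the suprabasal ones, but were near Control less often than all genes. Of 12 members 9 had a difference of at most 0.5 (75%, against 91.6% of all genes), 6 were bounded within 2-fold (50%, against 82.7%), and the median was 0.09. Krt5, the basal type II keratin, had 777, 1357 and 1276 FPKM in D15L100, against 429, 1458 and 1062 in Control, a difference of 0.34 ± 0.41. Col17a1, a hemidesmosome collagen, had 38.3, 91.3 and 49.2 FPKM in D15L100 and 16.1, 75.2 and 68.9 in Control. Itga6, the integrin subunit of hemidesmosomes, had 16.5, 28.3 and 28.3 FPKM in D15L100 and 26.8, 23.3 and 25.7 in Control, -0.09 ± 0.30. The groups overlapped in all 3. Of the members outside that range, Krt14, the partner of Krt5, had 2061, 2512 and 1881 FPKM in D15L100, against 788, 1711 and 1692 in Control, with no overlap and a difference of 0.70 ± 0.32 and the one unadjusted p under 0.05 in the list. Trp63, the transcription factor of epidermal stem cells, had a difference of 0.65 ± 0.35. Krt15 had a difference of 1.23 ± 1.33, with 253, 266 and 131 FPKM in D15L100 and 5.38, 386 and 281 in Control, where Control 1 was far below the other 5 libraries. With 1 library left out at a time, the list median lay between -0.07, without Control 1, and 0.52, without D15L100 1, and the number near Control was 11 and 6 of 12 in these fits.

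**Figure D3:**
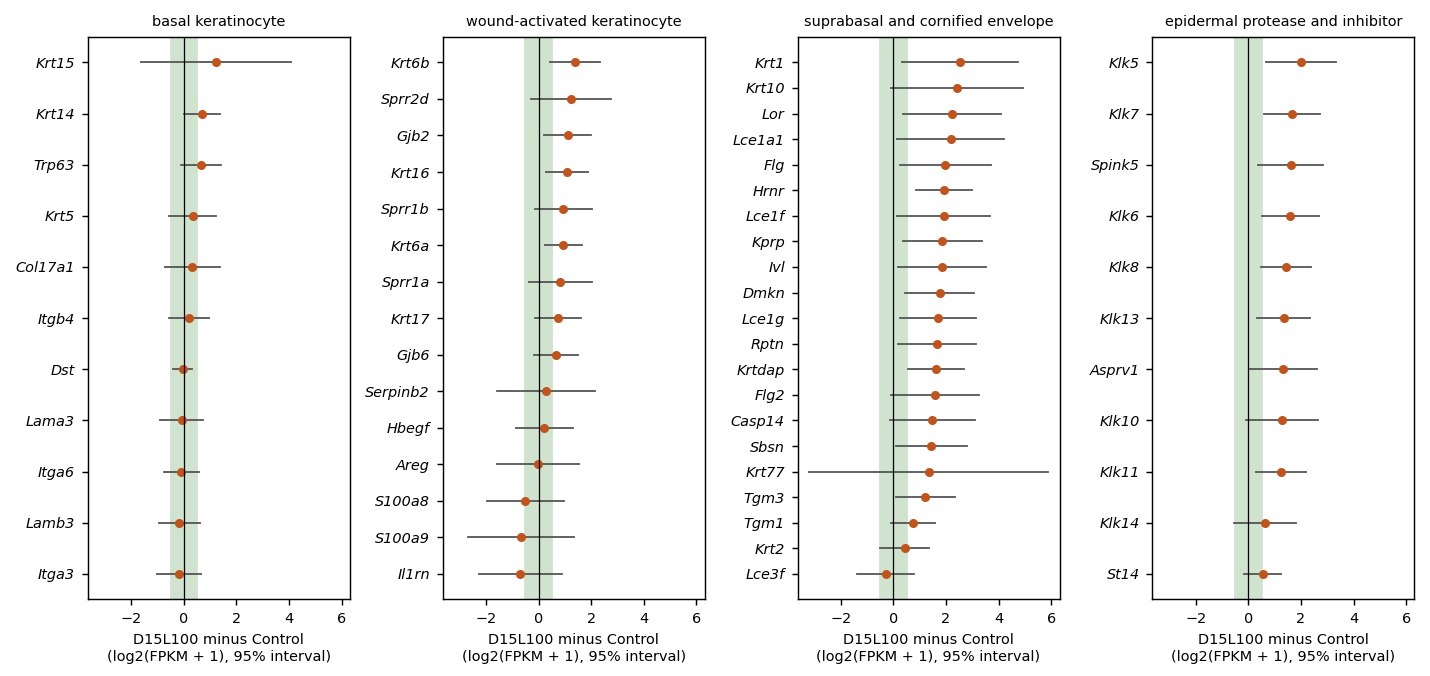
Difference D15L100 minus Control in mean log2(FPKM + 1) with its 95% interval from limma (points and lines) for tested members of 4 epidermal lists, with the range of at most 0.5 shaded. Of the 11 basal genes drawn, 8 lie in the shaded range, which holds 91.6% of all genes tested. Outside it lie 19 of 21 suprabasal and all 11 protease genes.

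Keratinocyte genes of wounded epidermis were intermediate, with a median of 0.74 over 15 members, of which 11 were positive, 3 were near Control (20%, against 91.6% of all genes) and 4 reached an unadjusted p under 0.05 with a positive difference (26.7%, against 2.01%). The median was 0.34 without D15L100 2, with 6 near Control, and 1.04 without D15L100 3. The 4 genes became 1 without Control 1 and 8 without D15L100 3, where the count over all 13078 genes was 108 and 496. Krt6a, a keratin of wound-edge and follicle cells, had 488, 1006 and 432 FPKM in D15L100, against 241, 301 and 413 in Control, a difference of 0.94 ± 0.33. Krt16, its type I partner, had 857, 953 and 491 FPKM in D15L100 and 211, 354 and 559 in Control, 1.09 ± 0.37. Connexin 26, Gjb2, had 89.1, 168 and 48.8 FPKM in D15L100 and 37.1, 33.7 and 56.6 in Control, 1.11 ± 0.42. Krt6a was the one member of the list with D15L100 wholly above Control, while in Krt16 and Gjb2 D15L100 3 fell below the highest Control value. Krt6a and Krt6b are closely alike, so their fragments may be split uncertainly. The members near Control were the growth factor genes Hbegf (0.22 ± 0.50) and Areg (-0.01 ± 0.73) and Serpinb2 (0.27 ± 0.87). Negative values came from S100a8 (-0.51 ± 0.69) and S100a9 (-0.65 ± 0.94), which neutrophils also express, and the interleukin 1 antagonist Il1rn (-0.69 ± 0.74).

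Proteases of the cornified layer and their inhibitors had a median of 1.34 over 11 members. All 11 were positive, none was near Control, and 8 had an unadjusted p under 0.05 (72.7%, against 2.01% of all genes). That count was 4 without Control 1 or without D15L100 2, and 9 without D15L100 3. Over all 13078 genes, 108, 86 and 496 were positive at that p in the same 3 fits. Klk5, which activates other kallikreins, had 62.96, 60.2 and 11.6 FPKM in D15L100, against 3.07, 13.95 and 11.8 in Control, 2.00 ± 0.61. Spink5, the inhibitor that restrains these proteases, had 34.2, 82.96 and 13.8 FPKM in D15L100 and 5.34, 12.4 and 16.8 in Control, 1.62 ± 0.58. D15L100 1 and 2 exceeded all Control values in all 11 genes, against 1132 of all 13078 genes tested. D15L100 3 did so in the 3 whose groups did not overlap, an arrangement found in 2.1% of all genes. Desmosome genes had a median of 0.95 over 14 members, all positive, with 5 at an unadjusted p under 0.05 (35.7%, against 2.01% of all genes). Cdsn, corneodesmosin of the outermost junctions, had 154, 186 and 26.8 FPKM in D15L100 and 11.4, 38.7 and 39.9 in Control, 1.78 ± 0.64. Dsg2, a desmoglein of simple and basal epithelium, was the single desmosome gene near Control, at 0.07 ± 0.41. D15L100 2 was the highest of the 6 libraries in all 14 desmosome genes, against 2849 of all 13078 genes. The desmosome median was 0.45 without D15L100 2, 0.38 without Control 1 and 1.25 without Control 3. The first 2 of these fits each had 9 of 14 near Control, against 12184 and 12586 of all genes. Each had 2 desmosome genes at an unadjusted p under 0.05, against 10 without D15L100 3. Over all genes, 86, 108 and 496 were positive at that p without D15L100 2, Control 1 and D15L100 3. The protease median was 0.98 without Control 1 and 1.90 without D15L100 3.

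Barrier lipid genes divided into those near Control and those above it. The general enzymes of sphingolipid synthesis Sptlc1 (0.25 ± 0.19), Sptlc2 (0.02 ± 0.12) and Ugcg (-0.21 ± 0.26) were near Control, as were the lipoxygenase Aloxe3 (0.44 ± 0.34) and the lipase cofactor Abhd5 (0.35 ± 0.19). Larger differences included genes used mainly in differentiating keratinocytes, among them the ceramide synthase Cers3 at 7.36, 10.8 and 3.13 FPKM in D15L100 and 1.56, 2.20 and 2.15 in Control, 1.33 ± 0.38, and the lipid transporter Abca12 at 5.18, 11.4 and 1.62 FPKM in D15L100 and 0.516, 1.72 and 2.04 in Control, 1.33 ± 0.46. In these, too, D15L100 3 was the lowest of its group, and it overlapped Control in Abca12 but not in Cers3. The list median was 0.77 over 16 members, or 0.26 without Control 1 and 1.38 without D15L100 3. Transcription factors of epidermal differentiation had a median of 0.83 over the 14 of 16 names tested, none passing, with Klf4 (1.10 ± 0.37), Zfp750 (1.10 ± 0.42) and Grhl1 (1.08 ± 0.46) highest and Maf (0.23 ± 0.21), Prdm1 (0.05 ± 0.27), Grhl2 (0.33 ± 0.29) and Elf3 (0.43 ± 0.45) near Control. Their median was 0.44 without D15L100 2 and 1.13 without D15L100 3. Of appendage genes, 8 of 11 hair follicle genes and 8 of 10 sebaceous gland genes were near Control (72.7% and 80%, against 91.6% of all genes), with medians of 0.25 and 0.34. The hair follicle median lay between 0.06 and 0.47 with 1 library left out, and the sebaceous one between -0.34, without Control 1, and 0.95, without D15L100 3.

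A smaller set of epidermal genes was near Control whichever library was left out. Each of the 6 libraries was omitted in turn, and 10658 of all genes (81.5%) stayed within 0.5 in every fit. Among genes of the 7 epidermal lists, those that did so included Itga6, Itga3, Lama3, Lamb3 and Dst of the basal list, Areg, Dsg2, Ugcg, Sptlc1, Sptlc2, Prdm1 and Maf. By list these were 6 of 12 basal genes, 4 of 16 barrier lipid genes, 3 of 14 transcription factors, 1 of 15 wound-activated genes, 1 of 14 desmosome genes and none of the suprabasal or protease genes. The basal ones named code for integrins and laminins that hold the epidermis to the basement membrane and for Dst, a linker inside hemidesmosomes. Not every gene of this kind did so, since the hemidesmosome collagen Col17a1 reached 0.71. Lamb3, Lama3 and Itga3 came close to the limit, at -0.48, -0.46 and -0.43. The basal share (50%) was also below that of all genes (81.5%).

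Nuclear-encoded mitochondrial genes stayed close to Control throughout. All 31 oxidative phosphorylation genes were near Control and bounded within 2-fold, against 91.6% and 82.7% of all genes, and all 31 stayed within 0.5 whichever library was omitted. Their median was -0.05, and single differences ran from -0.19 in Ndufa2 to 0.13 in Ndufa4. Atp5b, a subunit of ATP synthase, had 564, 529.7 and 696 FPKM in D15L100, against 549.9, 715 and 514 in Control, 0.01 ± 0.17. Sdha of complex II had 76.96, 77.5 and 100.1 FPKM in D15L100 and 72.01, 107 and 74.3 in Control, 0.02 ± 0.21. Cox4i1 of complex IV had 466, 319 and 439 FPKM in D15L100 and 467, 487 and 379.8 in Control, -0.13 ± 0.16. The groups overlapped in these 3 genes. The 19 citrate cycle and mitochondrial upkeep genes tested lay likewise, with a median of -0.02 and all 19 near Control and bounded, among them citrate synthase, Cs (0.10 ± 0.20), and the mitochondrial DNA packaging factor Tfam (-0.06 ± 0.11).

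Transcripts of the mitochondrial genome had a median difference of -0.44 over 13 genes, 12 negative and 1 positive, and no gene reached even an unadjusted p under 0.05. Together they took 8.09, 5.18 and 9.09% of all FPKM in D15L100 1, 2 and 3, against 12.5, 10.7 and 7.40% in Control 1, 2 and 3. The ranges overlapped. COX1, of complex IV, had 14298, 7825 and 13855 FPKM in D15L100, against 17608, 17139 and 11735 in Control, -0.40 ± 0.26. ND1, of complex I, had 6661, 3412 and 7923 FPKM in D15L100 and 14185, 8742 and 6053 in Control, -0.69 ± 0.32. ATP8, of ATP synthase, had 119, 64.8 and 147 FPKM in D15L100 and 333, 156 and 98.4 in Control, -0.72 ± 0.39. In all 3, D15L100 2 was the lowest and Control 1 the highest of the 6 libraries. Over the 13 genes, D15L100 2 was the lowest in 12, against 2991 of all 13078 genes. Control 1 was the highest in 11 (84.6%, against 30.7% of all genes). Near Control were 7 of the 13 genes (53.8%, against 91.6% of all genes), ND3, ND4, ND6, COX1, COX2, COX3 and CYTB. Of these, the interval of COX1 (-0.95 to 0.15) and of ND6 (-0.57 to 0.98) stayed within 2-fold. The outlying genes were ND4L (-0.74 ± 0.36), ATP8, ND1, ATP6 (-0.54 ± 0.35), ND5 (-0.53 ± 0.32) and ND2 (-0.52 ± 0.39). ATP6 overlaps ATP8 and ND4L overlaps ND4, so some fragments could belong to either gene of a pair. The list median was -0.28 without Control 1 and -0.13 without D15L100 2, with 12 of 13 genes near Control in both fits. It was -0.59 without D15L100 1, with 2 near, -0.69 without D15L100 3, with 1 near, and -0.74 without Control 3, with 1 near. In these 3 fits 2, 3 and 6 of the 13 genes had a negative difference with an unadjusted p under 0.05. Over all 13078 genes, 205, 181 and 210 had one in the same fits, and 11875, 11553 and 11497 were near Control. ND6, encoded on the other strand from the remaining 12 genes, was alone in staying within 0.5 whichever library was omitted.

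**Figure D4:**
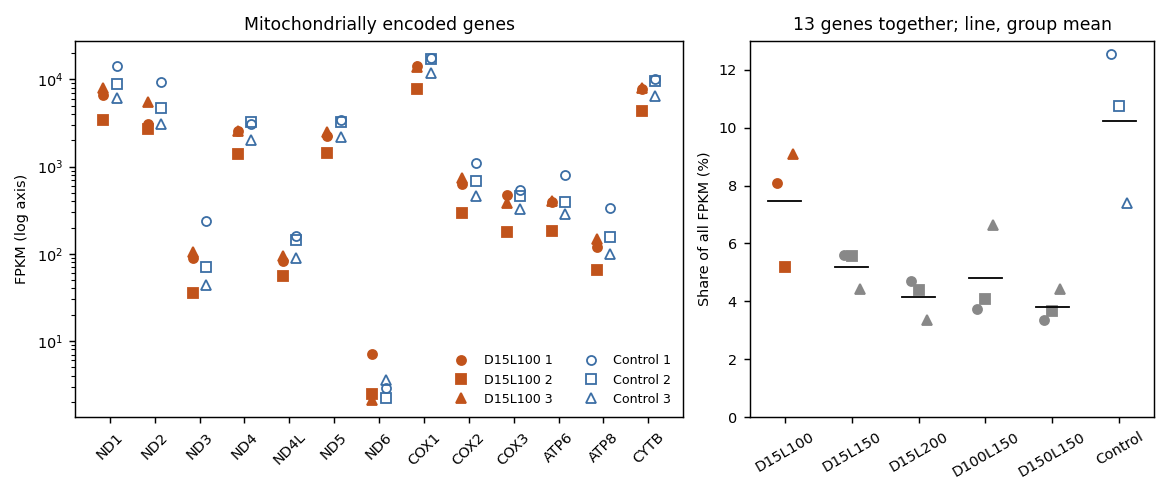
Left, FPKM (log axis) of the 13 mitochondrially encoded genes in each D15L100 library (filled) and Control library (open). Right, their summed share of all FPKM in every library, with lines at group means, where D15L100 at 5.18 to 9.09% overlaps Control at 7.40 to 12.5%.

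Outside the epidermis, proliferation and core metabolism genes lay near Control, as did 91.6% of all genes, and some vascular and inflammatory genes did not. All 15 cell cycle genes were near Control and bounded, against 91.6% and 82.7% of all genes. Their median was -0.08, and it lay between -0.23 and 0.05 with 1 library left out. Mki67, a proliferation marker, had 9.86, 10.8 and 14.4 FPKM in D15L100 and 13.01, 10.9 and 11.7 in Control. All 17 glycolysis and hypoxia genes were near Control with a median of -0.01, which lay between -0.08 and 0.02 with 1 library left out. Only 9 were bounded (52.9%, against 82.7% of all genes). All 15 fibroblast and matrix genes were near Control with a median of 0.26, and 5 were bounded (33.3%, against 82.7% of all genes). The median lay between -0.04 and 0.44 with 1 library left out, and 6 of 15 were near in every such fit (40%, against 81.5% of all genes). Col1a1, a fibrillar collagen gene, had 2499.7, 2393 and 1965 FPKM in D15L100, against 919.7, 2347 and 2693 in Control. Skeletal muscle genes were near Control in 15 of 17 cases (88.2%, against 91.6% of all genes) with none bounded, and Acta1, the skeletal actin, had 3199, 2559 and 5972 FPKM in D15L100 and 3104, 5449.6 and 2923 in Control. The muscle median was 0.65 without Control 2, with 6 of 17 near, and -0.25 without D15L100 3, with 15 of 17 near. In every fit with 1 library left out, 5 of 17 stayed near (29.4%, against 81.5% of all genes).

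All 15 blood endothelial genes were negative, with a median of -0.71. Cdh5, the cadherin of endothelial junctions, had 36.2, 29.2 and 52.5 FPKM in D15L100, against 145, 37.4 and 68.5 in Control, -0.90 ± 0.50, and Pecam1 had 51.3, 37.9 and 61.96 FPKM in D15L100 and 151, 47.05 and 79.1 in Control. Control 1 was the highest library for all 15, against 30.7% of all genes, and the groups overlapped. Without Control 1 the median was -0.23 with all 15 near Control, against 12586 of all 13078 genes in that fit. Without Control 2 the median was -1.13, with 1 near and 12 of 15 negative at an unadjusted p under 0.05. Over all 13078 genes, 11250 were near in that fit and 461 were negative at that p. Genes of neutrophils and inflammatory cytokines had a median of -0.65, with 16 of 17 negative and Control 1 highest in 16. The chemokine Cxcl2 had 275, 81.1 and 85.9 FPKM in D15L100 and 1217, 117 and 425 in Control, -1.65 ± 1.60, and Tnf had 10.8, 5.90 and 4.001 FPKM in D15L100 and 40, 6.55 and 14.6 in Control, -1.19 ± 1.00. Without Control 1 the list median was -0.13, with 11 of 17 genes near Control, and without Control 2 it was -1.45, with 1 near. Interferon-stimulated genes had a median of 0.54 with all 11 positive and none passing, and Ifit2 had 28.1, 26.2 and 44.9 FPKM in D15L100 and 12.3, 14.1 and 39.1 in Control, where Control 3 stood with the D15L100 libraries. The list median was 0.33 without Control 2 and 0.94 without Control 3.

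Set against the mean of the other 4 spacer groups, a contrast that does not use Control, D15L100 again had 0 genes past the threshold in limma (0% of 13078). The smallest adjusted p was 0.1053, 1523 genes had an unadjusted p under 0.05 (11.6%), 733 with a positive difference (5.6%) and 790 with a negative one (6.04%), and voom called 0 with 1588 such genes. That smallest p belonged to Lce3f, a late envelope gene that passed the filter on low values through the other spacer libraries, so its values are a description only. It was at 0.0943, 0.567 and 0.213 FPKM in D15L100, against 3.50, 6.97 and 19.8 (lowest, median and highest) in the 12 other spacer libraries, -2.76 ± 0.41. The peptidoglycan-binding gene Pglyrp4 was at 0.479, 1.72 and 0.163 FPKM in D15L100 and 1.95, 7.15 and 18.3 in the other spacer libraries, -2.28 ± 0.39. Those other libraries alone were enough for Pglyrp4 to pass the filter, so its values too are a description only. Klk10 was at 19.4, 74.1 and 9.60 FPKM in D15L100 and 62.1, 112 and 392 in the other spacer libraries, -2.22 ± 0.51. D15L100 2 was the highest of its group in all 3 genes. It reached into the range of the other spacer libraries for Klk10, while all 3 D15L100 values lay below that range for Lce3f and Pglyrp4. The envelope genes Sprr1a, Lce3d and Lce3e and the epithelial gene Plet1 were other negative genes among the 50 smallest p, at -1.88 ± 0.45, -2.12 ± 0.49, -1.91 ± 0.44 and -1.90 ± 0.38.

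Several epidermal lists and the mitochondrial genome lay further from the other spacer groups than all genes did. The lists were chosen with earlier results of these data known, so these shares too are no test. The basal list had a median of -0.75 against those groups, with 8 of 12 genes negative at an unadjusted p under 0.05, against 6.04% of all genes. Medians were -1.11 for the wound-activated list, with 11 of 15 such genes, -1.05 for desmosome genes, with 12 of 14, and -0.58 for the suprabasal list, with 4 of 21. All 13 mitochondrially encoded genes had positive differences with an unadjusted p under 0.05 and a median of 0.80, against 5.6% of all genes. The 31 nuclear oxidative phosphorylation genes had a median of 0.28, with 4 such genes. COX3 of complex IV was at 476, 177 and 380.0 FPKM in D15L100 and 134, 172 and 258 in the other spacer libraries, 0.87 ± 0.25. Of single genes on the higher side, the myogenic factor Myod1 was at 31.7, 17.1 and 19.98 FPKM in D15L100 and 8.56, 11.8 and 16.6 in the others, 0.84 ± 0.21. Colq, the collagen tail of synaptic acetylcholinesterase, was at 1.75, 0.853 and 1.46 FPKM in D15L100 and 0.348, 0.495 and 0.894 in the others, 0.58 ± 0.13. Colq passed the filter on low values only through D15L100 and Control libraries, so its values are a description only. D15L100 2 was the lowest of its group for COX3, Myod1 and Colq. It overlapped the other spacer libraries for COX3 and Colq but not for Myod1. Other positive genes among the 50 smallest p were Pcp4l1, Pbxip1, Chpt1 and Prrg1, at 0.83 ± 0.21, 0.62 ± 0.15, 0.61 ± 0.15 and 0.45 ± 0.11. Without D15L100 2 this contrast called 76 genes, 15 higher and 61 lower, and 2589 had an unadjusted p under 0.05. It called none without D15L100 1 or without D15L100 3, with 584 and 444 genes at an unadjusted p under 0.05 in limma and smallest adjusted p of 0.9222 and 0.9615. Of the 76 genes, the higher ones included COX1, COX2 and COX3. The lower ones included Krt6a, Klk10, Gjb2, Lama3, Lamb3, Jup, Dsp, Dsg3 and Sprr1a, and also Pglyrp4 and Lce3f, which are a description only, as above.

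**Figure D5:**
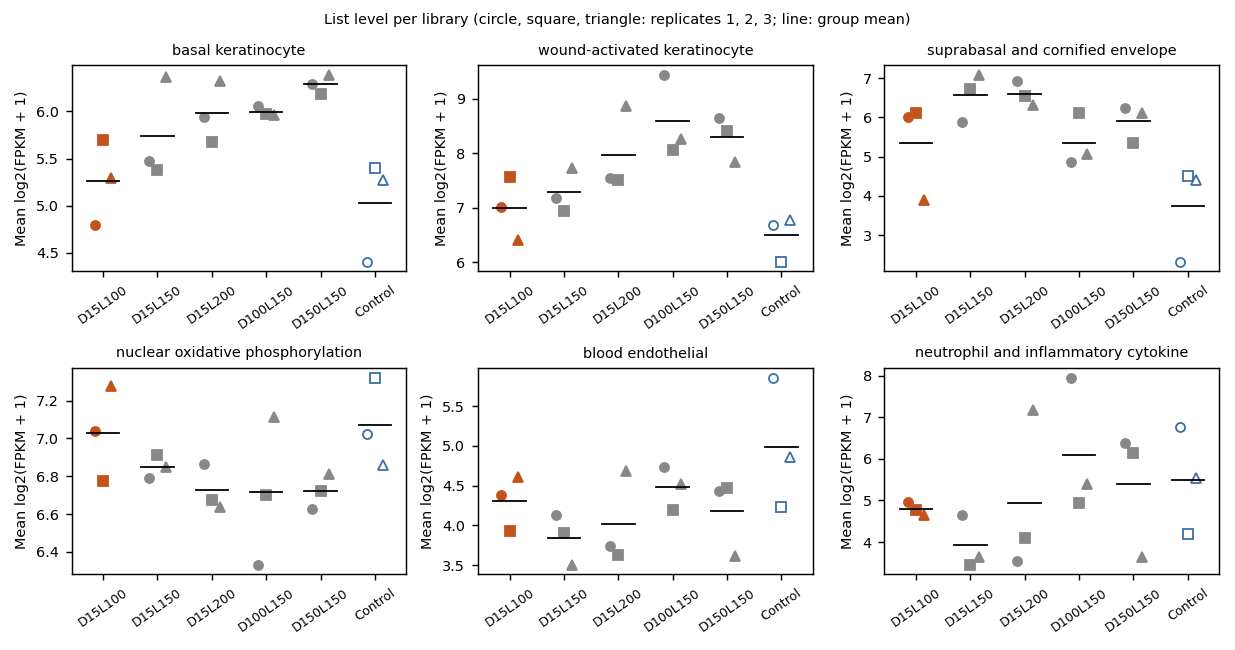
Mean log2(FPKM + 1) over the tested genes of 6 lists in every library, with lines at group means and circle, square and triangle for replicates 1, 2 and 3. For basal genes D15L100 spans 4.80 to 5.70 and Control 4.41 to 5.40, and for suprabasal genes D15L100 1 and 2 stand at 6.01 and 6.10, D15L100 3 at 3.91, and Control at 2.33 to 4.51.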

How the data were processed

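RNA-seq was measured in 18 skin libraries, 3 per group. The authors deposited FPKM per gene, and per the submitters' processing notes fastp, HISAT2, HTSeq, R 3.2.0 and DESeq2 were used with the mouse build mm10; annotation, strand setting and the tool behind each value were not given in the sources used here. Genes with at least 1 FPKM in 3 or more libraries were kept (13078 of 27743). Values were analysed as log2(FPKM + 1) with limma 3.58.1 in R 4.3.3, by 1 fit over all 18 libraries with a mean per group, trended and robust variance, and Benjamini-Hochberg adjustment over all genes tested. The fits were also run on simulated data, with noise drawn separately for each gene and library. No library was made to stand apart there, so this check does not cover libraries such as Control 1. Whole fragments were recovered from the FPKM steps for all 27743 genes (28422344 to 35327357 per library) for the voom alternative. No column of another sample was present. FPKM are relative, so a few abundant genes can shift all others, and HTSeq-type counting can drop fragments shared by overlapping or near-identical genes.

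Named genes were those with the largest differences among groups that do not overlap (12 per direction), the 10 smallest p-values, members of the epidermal and mitochondrial lists, examples of other lists, and, against the other spacer groups, the largest differences among the 50 smallest p-values. Some of these genes are not reported here, though they remain in counts and medians of their lists. Members and lists were chosen with earlier results of these data known. Csf3 and markers given as ranges were named after their values were seen. Gene positions and promoters are from RefSeq on GRCm38.p6, matched by gene ID for 13052 genes. Alternatives were another pseudocount, no filter, quantile and TPM scaling, voom, a replicate block, a fit of D15L100 and Control alone, and each library left out in turn.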

Additional observations from a re-analysis of the deposited data

How the results depend on the processing

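Against Control, no gene was called in limma under the 0.1 pseudocount, quantile or TPM scaling, voom, the fit of D15L100 and Control alone, or any single library left out (0 to 0 genes). Without the filter on low values 1 gene was called, Or52n4, with a difference of 0.04. Against the other spacer groups 1 gene, Lce3f, was called with the 0.1 pseudocount and 1, again Lce3f, with TPM scaling, 3 were called without the filter (Or52n4, Gm33187 and Gm51965), and 0 to 76 with one D15L100 library left out, the 76 without D15L100 2. The cause was not tested. The replicate block gave 0 calls in both comparisons. In limma it had 385 genes at an unadjusted p under 0.05 against Control and 1297 against the other spacer groups. Same-numbered libraries of D15L100 and Control had correlations of -0.10, 0.19 and -0.41 in their deviations from group means. Libraries with different numbers reached 0.52 (D15L100 2 with Control 3), and single libraries weigh on all such values. They therefore cannot decide whether the numbers pair libraries.

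None of the 125 genes named that had an unadjusted p under 0.05 changed sign. Of those with a difference over 0.5 in size, Krt77 (-0.51) and Krt15 (-0.67) were negative and S100a9 (0.04) positive without Control 1, and Krt77 (-0.57) and Dsg3 (-0.04) were negative without D15L100 2. Without both Control 1 and D15L100 3, a setting added after seeing the data, Krt15 was negative and Il1rn, S100a8 and S100a9 were positive. The median of all genes was -0.03 with quantile scaling and 0.01 with TPM, and the mitochondrially encoded median was -0.38 with quantile scaling and -0.42 with TPM. With 3 libraries a group, 10822 of 13078 intervals lay within 2-fold of no difference, and the others reached a 2-fold difference or more.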
